A study of Mus musculus with 6 samples.

Results

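Transcripts of 8 genes that govern sterol-regulated transcription, sterol transport and lipoprotein uptake were followed in cultured mouse cerebellar granule neurons (CGNs) given GSK-126, an inhibitor of the histone methyltransferase EZH2. The genes were taken by symbol and were Srebf1, Srebf2, Scap, Insig1, Insig2, Mbtps1, Mylip and Stard4. They are 8 of the 55341 genes listed in the count tables, and 8 of 8 were among the 16729 genes abundant enough to be tested. The cultures came from granule neuron progenitors of pooled litters of postnatal CD1-IGS mice aged P6-P8 and were purified on a Percoll gradient, and AraC was given to every culture at DIV2 (day in vitro 2) against dividing non-neuronal cells. The control group received the vehicle DMSO at DIV3 and the treated group GSK-126 at DIV3, with 3 libraries of polyA RNA each and RNA taken at DIV5. The sample titles name CGNs and DIV3, and the labels also name cerebellar tissue. Details of the culture and the later day come from the study's methods, and the dose added at DIV3 is not given in the sources used here. The drug acts on all cells of a dish, and no genetic change was made. The comparison asks how RNA levels differ when EZH2 is inhibited after the neurons have begun to mature.

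SREBP1 and SREBP2, the products of Srebf1 and Srebf2, are transcription factors made as membrane proteins of the endoplasmic reticulum. When sterol is scarce, the escort protein SCAP carries them to the Golgi, where site-1 protease (Mbtps1) and site-2 protease (Mbtps2) free the part that enters the nucleus. When sterol is plentiful, INSIG1 and INSIG2 hold SCAP back. SREBP2 mainly turns on sterol synthesis, SREBP1 mainly fatty acid synthesis, and Insig1 and Srebf2 are themselves targets. MYLIP, also called IDOL, is a ubiquitin ligase that sends lipoprotein receptors, among them VLDLR and the Lrp8 product, to degradation and is itself induced by the oxysterol receptors LXR. STARD4 carries cholesterol between membranes. Neurons depend early in life on their own sterol synthesis and later also on lipoproteins made by astrocytes.

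Counts on genes ranged from 7407189 to 13092763 per library. Levels are given as CPM, counts scaled to a common library total and adjusted by TMM factors, which lay between 0.953 and 1.02. The replicate number entered the fit as a block, and libraries with the same number deviated together from their group means. In this fit 561 genes were called higher and 851 lower with GSK-126, or 3.35% and 5.09% of the genes tested (threshold 0.05 after Benjamini-Hochberg adjustment). The fit without the block called 0 genes, or 0% of those tested. Transcripts of Ezh2, whose protein the drug inhibits, stood at -0.13 on the log2 scale (SE 0.11, edgeR, Benjamini-Hochberg adjusted p = 0.563). Markers of granule neurons summed to between 3909 and 6394 CPM with DMSO and between 3074 and 4805 CPM with GSK-126. Of 10 such genes 5 were called lower, from Gabra6 (-1.19) and Snap25 (-0.96) to Rbfox3, Neurod1 and Zic1 (-0.31). Higher were 2, Tubb3 (0.40) and Barhl1 (0.33), so these markers did not move together. Astroglial markers reached 7204 and 7562 CPM in replicate 1 of the 2 groups, 2334 and 2215 CPM in replicate 2, and 4020 and 3969 CPM in replicate 3, so glial RNA was present at levels that differed between pairs. In bulk RNA, fewer cells of a type and lower levels of its marker transcripts per cell cannot be told apart.

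Of the 8 genes, 5 were called higher with GSK-126 and 0 were called lower. These were Insig1, Stard4, Srebf2, Mylip and Srebf1, in order of p. The remaining genes, Scap, Insig2 and Mbtps1, did not pass the test and had log2 fold changes between -0.12 and -0.04. The share of 5 in 8 stands beside 3.35% called higher among all genes tested. The 8 genes and the block were chosen with earlier results of these data known, so this share is a description and not an independent test. The median log2 fold change of the 8 genes was 0.43, against -0.0056 for all genes tested. The same 5 genes were higher in all 3 pairs of same-numbered libraries, a pattern held by 19.6% of all genes tested. For 3 of them (Insig1, Stard4 and Srebf2) every GSK-126 library lay above every DMSO library, as it did for 4.72% of all genes tested. Without the block 0 of the 8 genes passed, and the same 3 had an unadjusted p under 0.05, where 1.77% of all genes were higher at that level. DESeq2 without the block called Insig1 and Stard4, where 19 genes were called higher and 2 lower of the 29476 it fitted.

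**Figure D1:**
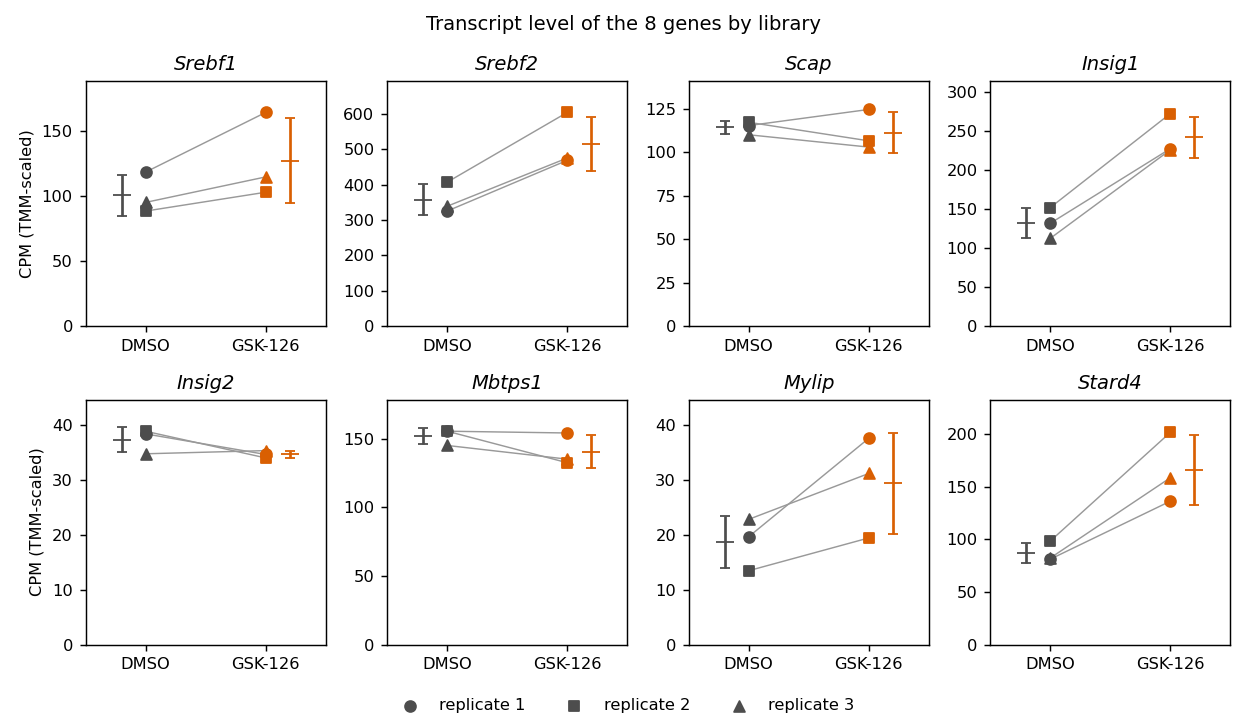
CPM (TMM-scaled, axes from 0) of the 8 genes in each DMSO (grey) and GSK-126 (orange) library, with grey lines joining libraries of the same replicate number and bars giving mean and SD of 3 libraries. The treated library is the higher one in all 3 pairs for Srebf1, Srebf2, Insig1, Mylip and Stard4, and the groups separate fully for Srebf2, Insig1 and Stard4.

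Of the transcription factors, Srebf2 was the more abundant and rose 1.44-fold. Srebf2 (ENSMUSG00000022463.8, GRCm38 chromosome 15, 82147181 to 82205379, plus strand) had 325, 407 and 339 CPM in DMSO replicates 1, 2 and 3. With GSK-126 it had 469, 604 and 475 CPM in replicates 1, 2 and 3. All treated libraries lay above all controls, and replicate 2 was the highest of its group in both. Controls averaged 357 ± 43.8 CPM and treated libraries 516 ± 76.4 CPM (SD, n = 3). The fitted log2 fold change was 0.53 (standard error, SE, 0.068, edgeR, Benjamini-Hochberg adjusted p = 3.8e-05 with the block and 0.953 without it). The 3 pairs gave log2 ratios of 0.53, 0.57 and 0.49, the smallest spread among the 8 genes (SD 0.041).

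Srebf1 rose 1.25-fold. Srebf1 (ENSMUSG00000020538.15, GRCm38 chromosome 11, 60199089 to 60222581, minus strand) had 119, 88.6 and 95.3 CPM in DMSO replicates 1 to 3. Its GSK-126 libraries had 165, 103 and 115 CPM. The groups overlapped, since the control of replicate 1 lay above the treated libraries of replicates 2 and 3, and replicate 2 was the lowest of both groups. Within pairs the log2 ratios were 0.47, 0.22 and 0.27. Its fitted log2 fold change was 0.32 (SE 0.081, edgeR, Benjamini-Hochberg adjusted p = 0.0154 with the block and 0.953 without it). With both libraries of replicate 1 left out it was 0.26 and no longer passed (edgeR with the block, Benjamini-Hochberg adjusted p = 0.232). In fits with no block, leaving out GSK-126 replicate 1 gave 0.13, and leaving out DMSO replicate 1 or GSK-126 replicate 2 gave 0.49. The counts cannot separate the SREBP-1a and SREBP-1c transcripts, which share most exons. Its exons share 109 bp with Rai1 on the opposite strand and 66 bp with Mir6922 on the same strand, and the strand setting of the counting is not given in the sources used here.

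Promoter windows of Srebf2, Insig1 and Scap are given because SREBPs bind sterol regulatory elements and E-boxes, and these 3 genes were the ones whose windows held TCACCCCA or CACGTG. RefSeq (GRCm38.p6) windows from 250 bases before to 50 after the start site were held for 7 of the 8 genes, 12 windows in all, and Stard4 had none. Both strands were searched for the sterol regulatory element TCACNCCAC, its 8-base relative TCACCCCA, the E-box CACGTG, the NF-Y site CCAAT and the GC box GGGCGG. The first motif and the second overlap where TCACCCCA is followed by C. In the windows below capitals mark TCACCCCA in Srebf2 (chr15:82147019-82147318, plus strand) and CACGTG in Insig1 (chr5:28071162-28071461, plus strand) and in Scap (chr9:110333106-110333405, plus strand, the second of 2 windows of this gene).
Srebf2: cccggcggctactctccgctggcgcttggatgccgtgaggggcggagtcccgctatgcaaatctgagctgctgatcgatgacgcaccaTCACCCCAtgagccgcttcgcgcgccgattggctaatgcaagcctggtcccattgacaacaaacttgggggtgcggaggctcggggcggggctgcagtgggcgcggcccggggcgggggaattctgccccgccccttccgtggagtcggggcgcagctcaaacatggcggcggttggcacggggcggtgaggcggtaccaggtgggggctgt
Insig1: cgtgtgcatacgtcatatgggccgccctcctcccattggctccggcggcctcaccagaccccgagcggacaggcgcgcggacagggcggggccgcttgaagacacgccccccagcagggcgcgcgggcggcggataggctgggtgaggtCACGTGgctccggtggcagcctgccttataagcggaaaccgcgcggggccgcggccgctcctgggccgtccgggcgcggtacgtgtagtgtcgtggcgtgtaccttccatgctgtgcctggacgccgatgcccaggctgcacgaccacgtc
Scap: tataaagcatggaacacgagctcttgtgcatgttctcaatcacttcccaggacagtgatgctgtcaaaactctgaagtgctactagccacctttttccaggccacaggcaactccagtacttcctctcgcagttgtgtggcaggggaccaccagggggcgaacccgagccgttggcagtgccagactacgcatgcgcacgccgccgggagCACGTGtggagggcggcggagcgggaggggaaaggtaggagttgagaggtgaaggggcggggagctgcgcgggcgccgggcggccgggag
TCACCCCA lay 162 to 155 bases before the start site of Srebf2, the single match among the 7 genes with a window, where 1.56% of all 32851 windows hold it. CACGTG lay 101 to 96 bases before the start site of Insig1 and 40 to 35 bases before the start site of the Scap window shown. In the other Scap window the same letters lie 29 to 34 bases after the start site. CACGTG was thus in 3 of the 12 windows, with the same site in both Scap windows, and 7.15% of all windows hold it. By gene it was found for 2 of the 7 genes with a window, beside 8.09% of all genes with a window. TCACNCCAC was in 0 of the 12 windows and in 1.24% of all windows. Since only exact letters were counted, this does not show that a window, such as those of Srebf1, lacks a sterol regulatory element. The more common CCAAT was in 6 of the 12 windows (37.4% of all windows) and GGGCGG in 10 of 12 (35.7% of all windows). A match is a description of letters in the window, and the part of any motif in these changes was not tested. CACGTG was found both for Insig1, which rose, and for Scap, which did not pass the test.

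Scap, the escort of both factors, stayed within narrow bounds. Scap (ENSMUSG00000032485.14, GRCm38 chromosome 9, 110333288 to 110384950, plus strand) had 116, 117 and 110.2 CPM in DMSO replicates 1, 2 and 3. The GSK-126 libraries had 125, 107 and 103 CPM. The groups overlapped, with the highest and the lowest library both in the treated group. The log2 fold change was -0.04 (95% interval -0.21 to 0.13, edgeR with the block, Benjamini-Hochberg adjusted p = 0.835). Changes outside 0.865-fold to 1.1-fold thus lay beyond the interval of this fit. Its SE was 0.081 with the block and 0.12 without it, so the width of the interval rests on the pairing. A stretch of 985 bp, or 13.2% of its exon length, overlaps the locus 5830462I19Rik on the opposite strand.

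Mbtps1, which encodes site-1 protease, was also not called. Mbtps1 (ENSMUSG00000031835.16, GRCm38 chromosome 8, 119508156 to 119558735, minus strand) had 156, 156 and 145 CPM with DMSO and 154, 133 and 135 CPM with GSK-126 in replicates 1 to 3. The groups overlapped through replicate 1 of the treated group. Its log2 fold change was -0.12 (95% interval -0.28 to 0.05, edgeR with the block, Benjamini-Hochberg adjusted p = 0.42). For Mbtps2, the site-2 protease gene, the fit gave -0.17 (95% interval -0.43 to 0.09, edgeR with the block, Benjamini-Hochberg adjusted p = 0.462). DMSO replicate 2 stood at 67.6 CPM for Mbtps2 and the other 5 libraries between 43.2 and 46.8 CPM, and 28.4% of its exon length is shared with Yy2 on the same strand.

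Of the retention genes, Insig1 rose 1.84-fold and Insig2 did not pass the test. Insig1 (ENSMUSG00000045294.11, GRCm38 chromosome 5, 28071363 to 28078662, plus strand) had 132, 152 and 113 CPM in DMSO replicates 1, 2 and 3 and 228, 273 and 226 CPM in those of GSK-126. All treated libraries lay above all controls, and replicate 2 was the highest of its group in both. Controls averaged 132 ± 19.8 CPM and treated libraries 242 ± 26.4 CPM (SD, n = 3). The fitted log2 fold change was 0.88 (SE 0.076, edgeR, Benjamini-Hochberg adjusted p = 2.8e-07 with the block and 0.774 without it). DESeq2 without the block gave an adjusted p of 0.0023 (Wald test, Benjamini-Hochberg). By p, Insig1 ranked 21 among the 16729 genes tested, and Stard4 ranked 22.

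Insig2 (ENSMUSG00000003721.14, GRCm38 chromosome 1, 121304353 to 121332589, minus strand) had 38.3, 38.8 and 34.7 CPM in DMSO replicates 1, 2 and 3. The treated libraries had 34.6, 33.9 and 35.3 CPM. The groups overlapped, and the pairs gave log2 ratios of -0.15, -0.19 and 0.03. Its log2 fold change was -0.11 (95% interval -0.34 to 0.13, edgeR with the block, Benjamini-Hochberg adjusted p = 0.643). That interval lies wholly below the interval of Insig1, 0.72 to 1.04.

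Ratios of 2 genes within a library do not depend on how libraries are scaled. Per exon length, Insig1 over Insig2 was 3.87, 4.4 and 3.64 in DMSO replicates 1, 2 and 3 and 7.4, 9.02 and 7.2 in those of GSK-126. The groups did not overlap, and the ratio was 1.98-fold higher with GSK-126, with 0.94, 1.04 and 0.98 on the log2 scale in the 3 pairs. Srebf2 over Scap was 2.92, 3.59 and 3.18 with DMSO and 3.89, 5.86 and 4.77 with GSK-126, again without overlap. For both ratios the exact permutation test over libraries gave p = 0.1 (two-sided, the smallest that 3 against 3 allow, and 0.2 after Benjamini-Hochberg adjustment over 4 ratios). This test leaves the pairing by replicate number aside. Srebf2 over Srebf1 was 2.15, 3.6 and 2.79 with DMSO and 2.23, 4.6 and 3.24 with GSK-126. It was higher in each treated library than in its partner, but the groups overlapped (exact permutation test, two-sided, p = 0.6, adjusted 0.7). Whether Srebf2 rose more than Srebf1 was therefore not resolved by this unpaired test.

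**Figure D2:**
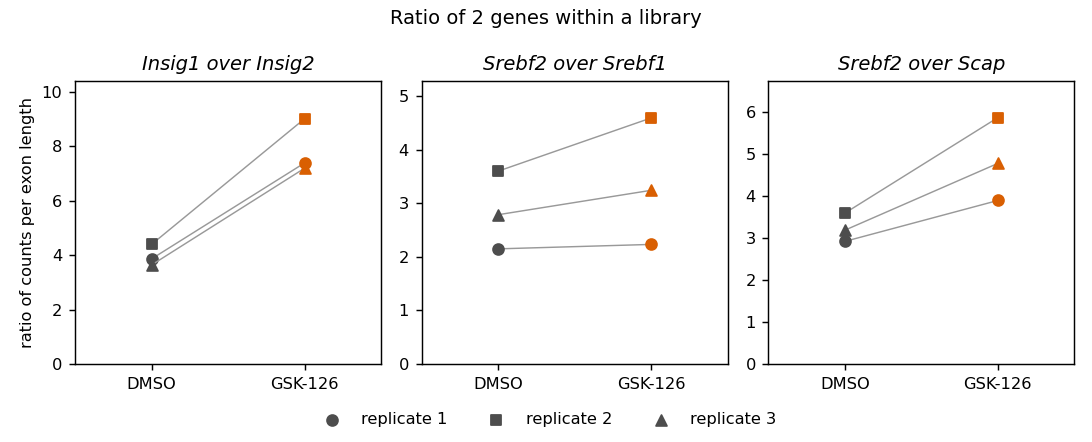
Ratio of counts per exon length (axes from 0) of 2 genes in each DMSO (grey) and GSK-126 (orange) library, joined by replicate number. Insig1 over Insig2 went from between 3.64 and 4.4 to between 7.2 and 9.02, and Srebf2 over Srebf1 overlapped between the groups.

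Stard4, the sterol carrier, had the largest fitted fold change of the 8 genes, 1.88-fold (95% interval 1.67 to 2.12). Stard4 (ENSMUSG00000024378.9, GRCm38 chromosome 18, 33199355 to 33213862, minus strand) had 81.2, 98.5 and 82.3 CPM in DMSO replicates 1, 2 and 3. The treated libraries had 136, 202 and 159 CPM. All treated libraries were above all controls, and replicate 2 was the highest in both groups. Its fitted log2 fold change was 0.91 (SE 0.082, edgeR, Benjamini-Hochberg adjusted p = 5.0e-07 with the block and 0.774 without it), and its interval overlaps that of Insig1. DESeq2 without the block gave an adjusted p of 0.00556 (Wald test, Benjamini-Hochberg). The pairs gave 0.75, 1.04 and 0.95 on the log2 scale.

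Mylip, the ubiquitin ligase of lipoprotein receptors, rose 1.56-fold. Mylip (ENSMUSG00000038175.10, GRCm38 chromosome 13, 45389742 to 45412022, plus strand) was the least abundant of the 8 genes, with 170, 144 and 262 counts or 19.6, 13.4 and 22.8 CPM in the controls. In the treated libraries it had 495, 180 and 233 counts or 37.5, 19.4 and 31.1 CPM. Replicate 2 was lowest in both groups, and its treated library lay below 2 of the controls. The 95% interval of the fold change was 1.27 to 1.92, and the fitted log2 fold change was 0.64 (SE 0.14, edgeR, Benjamini-Hochberg adjusted p = 0.00568 with the block and 0.953 without it). The pairs gave 0.93, 0.53 and 0.45, and without replicate 1 the value was 0.50 and did not pass (edgeR with the block, Benjamini-Hochberg adjusted p = 0.0947).

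In both groups replicate 2 had the lowest Mylip and Srebf1 levels and the lowest sum of astroglial markers. Among controls Mylip was highest in replicate 3 (22.8 CPM, against 19.6 in replicate 1). Astroglial markers there summed to 4020 CPM, against 7204 in replicate 1. Mylip in the treated group and Srebf1 in both groups were highest in replicate 1, as those markers were. Microglial and macrophage markers summed to 399, 177 and 310 CPM in DMSO replicates 1, 2 and 3 and to 489, 254 and 365 CPM in those of GSK-126. Of the 7 markers 6 were tested, C1qa and C1qb were called higher, 0 were called lower, and Trem2 was listed at 0 in every library. Among 7 astroglial markers S100b alone was called, higher with GSK-126. Fibroblast and mural markers summed to between 4808 and 6582 CPM with DMSO and between 5876 and 7190 CPM with GSK-126, with Col1a2 and Pdgfrb of 5 called higher. Mbp was called higher among 7 markers of the oligodendrocyte lineage, 0 of 3 tested endothelial and 0 of 3 tested cycling markers were called, and 3 of 6 markers of Purkinje cells and interneurons were lower. The part of these cells in the rises of Mylip and Srebf1 was not tested. With both libraries of replicate 2 left out, the same 5 genes were called, among 337 called higher of 16839 genes tested. Mylip then stood at 0.70 and Srebf1 at 0.38 (edgeR with the block, Benjamini-Hochberg adjusted p = 0.018 and 0.015). Without replicate 1, Mylip stood at 0.50 and Srebf1 at 0.26. Neither then passed (edgeR with the block, Benjamini-Hochberg adjusted p = 0.0947 and 0.232). Both leave-out fits rest on fewer libraries than the main fit.

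**Figure D3:**
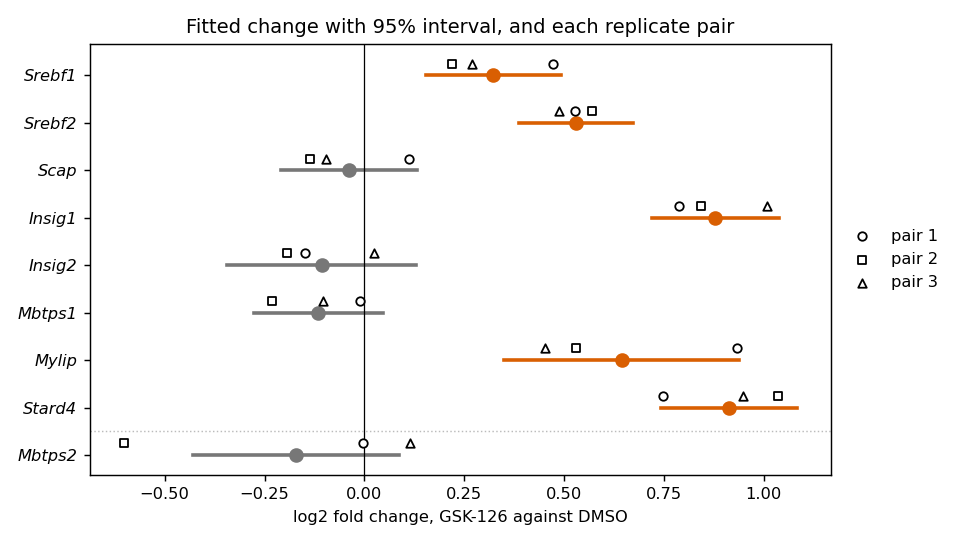
Log2 fold change with its 95% interval from the fit with the replicate block for the 8 genes and, under the dotted line, Mbtps2. Orange marks an adjusted p under 0.05, grey the rest, and open symbols are the 3 pairs. The intervals of Insig1, 0.72 to 1.04, and Insig2, -0.34 to 0.13, do not touch.

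Levels of different genes were compared per kilobase of exon. In the controls the order by mean was Srebf2 with 49.7 ± 6.09, Insig1 with 42.7 ± 6.39, Srebf1 with 17.9 ± 2.8, Stard4 with 15.6 ± 1.73, Scap with 15.4 ± 0.499, Mbtps1 with 14.4 ± 0.569, Insig2 with 10.7 ± 0.646 and Mylip with 5.75 ± 1.47 CPM per kb (SD, n = 3 each). Ranges of neighbours overlapped for Srebf2 and Insig1, for Srebf1 and Stard4, and for Stard4 and Scap. With GSK-126, Insig1 stood first with 78.3 ± 8.54 and Srebf2 second with 71.8 ± 10.6 CPM per kb. Stard4, at 29.7 ± 5.97, passed Srebf1, at 22.6 ± 5.79, though the libraries of these 2 genes overlapped. Scap, Mbtps1, Insig2 and Mylip kept ranks 5 to 8.

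**Figure D4:**
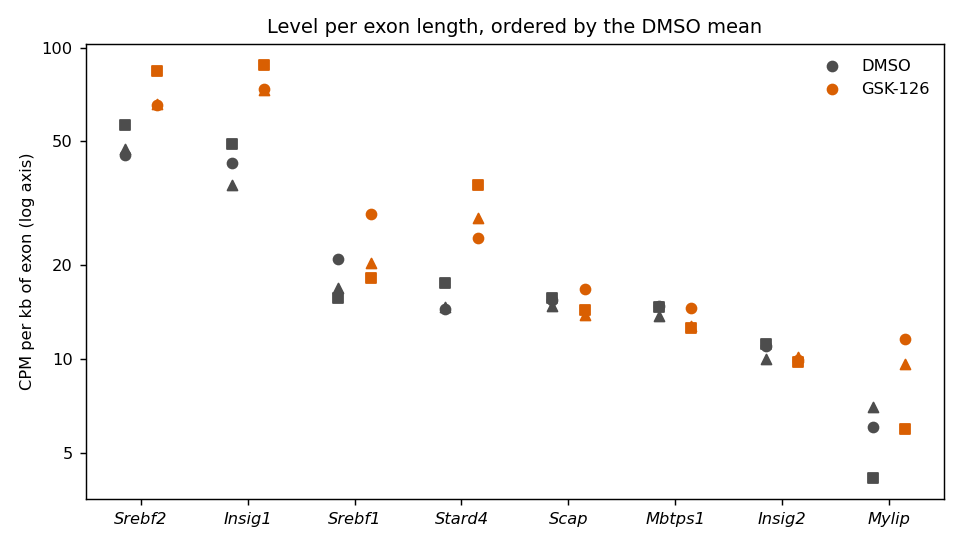
CPM per kb of exon (log axis) of the 8 genes in each library, ordered by the DMSO mean, with DMSO in grey, GSK-126 in orange and circle, square and triangle for replicates 1, 2 and 3. Srebf2 and Insig1 lie highest, between 36.4 and 88.1 CPM per kb, and Mylip, between 4.15 and 11.6, is lowest in every library but GSK-126 replicate 1, where Insig2 is lower at 9.95.

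Among related genes, the calls in each list stand beside 3.35% called higher and 5.09% called lower of all genes tested. The lists, too, were chosen with earlier results of these data known. Of 19 genes that escort, retain or degrade proteins of this machinery, 1 was called higher, 1 lower and 17 not, with a median log2 fold change of 0.05. Those called were Tmem97, an endoplasmic reticulum sterol-binding protein (0.49), and Fbxw7, a ubiquitin ligase subunit that targets nuclear SREBP (-0.66). The adjusted p values of these genes were 0.0132 and 1.7e-05 (edgeR with the block, Benjamini-Hochberg). Tmem97 lost its call in DESeq2 with the block (Benjamini-Hochberg adjusted p = 0.0543) and without replicate 3 (0.42, edgeR with the block, Benjamini-Hochberg adjusted p = 0.0726). Without the block, Fbxw7 ranged from -0.23 without DMSO replicate 2 through -0.44 without GSK-126 replicate 1 to -1.01 without GSK-126 replicate 2. Of 19 sterol synthesis enzymes that SREBP2 controls, 17 were called higher and 0 lower, with a median of 0.72, and Hmgcs1 (0.97) and Fdft1 (1.09) had the smallest p. The exceptions were Ebp (0.03) and Fdps (0.89, at 15 to 41 counts per library). Exons overlap another gene over 26.7% of the length for Fdps, 18.3% for Fdft1 and 12.1% for Hmgcs1. Of 15 enzymes and regulators of fatty acid synthesis that SREBP1 controls, 8 were called higher and 0 lower, with a median of 0.32, among them the desaturase Scd1 (0.79) and fatty acid synthase, Fasn (0.66).

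Of 10 LXR receptors and targets 3 were called higher and 0 lower (median 0.13), again beside 3.35% and 5.09% of all genes tested. Abca1, the cholesterol efflux pump, rose by 0.59 on the log2 scale, and Apoe by 0.34, while the receptors Nr1h2 and Nr1h3 stood at 0.01 and 0.27 (edgeR with the block, Benjamini-Hochberg adjusted p = 5.5e-05, 0.00777, 0.972 and 0.70). Apoe, a gene that astroglia express strongly, had 2044, 654 and 1344 CPM in DMSO replicates 1, 2 and 3 and 2440, 989 and 1513 CPM in those of GSK-126, in the same order as the astroglial markers given above, whose part in the result was not tested. Its call was lost without replicate 2 (0.22, edgeR with the block, Benjamini-Hochberg adjusted p = 0.129). In fits without the block Apoe turned to -0.04 without DMSO replicate 2 and to -0.09 when GSK-126 replicate 1 was left out. Leaving out DMSO replicate 1 gave 0.73 for Apoe, and leaving out GSK-126 replicate 2 gave 0.57. Among 10 genes of lipoprotein receptors and their control, the adaptor Dab2 was called higher and the reelin receptors Lrp8 and Vldlr lower, with a median of 0.04. Their log2 fold changes were -0.59 for Lrp8 and -0.34 for Vldlr. Vldlr lost its call without replicate 2 (-0.26, edgeR with the block, Benjamini-Hochberg adjusted p = 0.0551) and was -0.21 without DMSO replicate 2 and with no block. For Lrp8 with no block, leaving out DMSO replicate 2 gave -0.27, leaving out GSK-126 replicate 1 gave -0.36, and leaving out GSK-126 replicate 2 gave -0.92. Of 11 genes of sterol transport and storage, 2 were called higher and 2 lower (median -0.03), with Npc2, a lysosomal cholesterol carrier, at 0.52 and Gramd1b, which moves sterol from the plasma membrane, at -0.36. With no block and without DMSO replicate 2 these were 0.28 and -0.11, and Gramd1b was -0.58 without GSK-126 replicate 2. The call of Gramd1b was lost without replicate 1 (edgeR with the block, Benjamini-Hochberg adjusted p = 0.058). Stard5, a relative of Stard4, was called lower, with -0.29, and 22% of its exon length overlaps Il16 on the opposite strand. Without the block edgeR called 0 genes of any of these lists. Of the 2 genes per list with the smallest p, Hmgcs1, Fdft1, Scd1 and Fasn passed in DESeq2 without the block (Wald test, Benjamini-Hochberg adjusted p = 4.1e-06, 8.3e-06, 0.0049 and 0.0056). Other genes of the lists are not given for that fit. With both libraries of replicate 2 left out of the block fit, the 6 lists in this order had 1, 16, 6, 1, 1 and 2 genes called higher and 1, 0, 0, 0, 1 and 1 called lower. Over all 16839 genes tested in that fit, 337 were called higher and 496 lower.

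**Figure D5:**
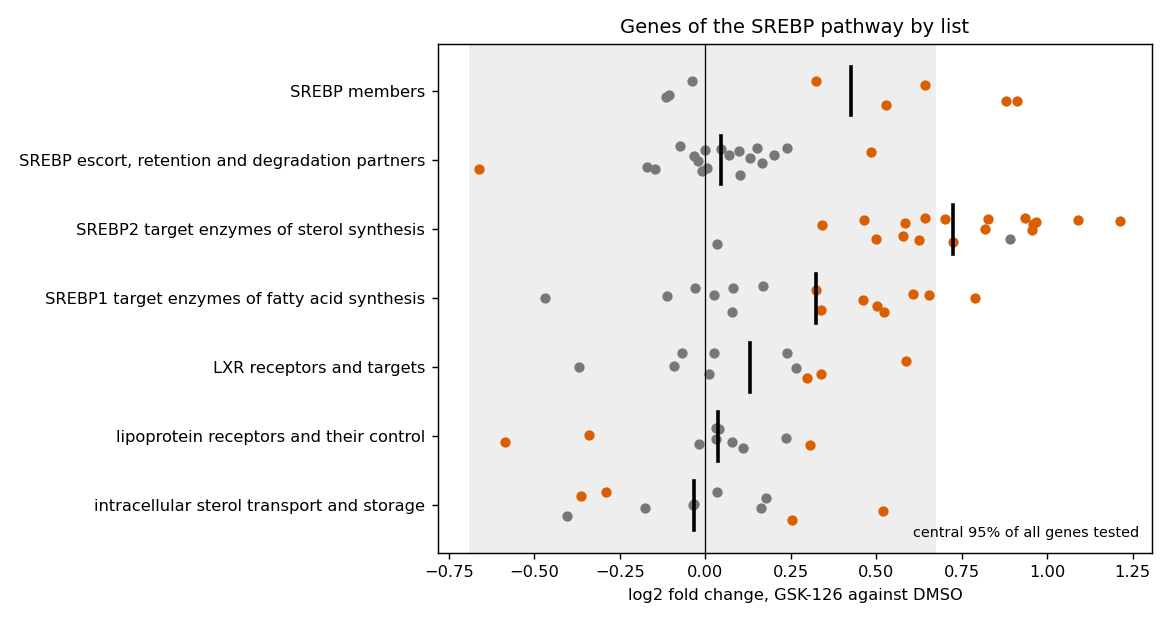
Log2 fold change of each tested gene (points, orange at an adjusted p under 0.05) in the 8 SREBP genes and 6 related lists, with the list median as a black bar and the central 95% of all genes tested shaded, -0.69 to 0.67. The sterol synthesis list, with a median of 0.72, lies farthest to the right, and the median of the partner list is 0.05.

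Likeness of profiles was measured as the root mean square difference of centred log2 CPM over the 6 libraries, among 15388 other genes with a mean log2 CPM over 1. Among the genes nearest to Insig1 were Hmgcs1 (0.101) and Rdh11 (0.102), and among those nearest to Stard4 were Hmgcs1 (0.11) and Lss (0.113). Srebf2 lay nearest to Sqle, the squalene epoxidase gene (0.0282), then Kcnq5 (0.0607) and Comtd1 (0.0754). For each of Insig1, Stard4 and Srebf2, an enzyme of sterol synthesis was thus among the 3 nearest genes. Mylip was closest to Fadd (0.1), the LXR target Abca1 (0.111) and the leukocyte gene Cd53 (0.112). Srebf1 was closest to Sec11c (0.0337), Asah1 (0.0567) and Itgb8 (0.0588). The members' own root mean square deviation from their means was 0.288 for Srebf1 to 0.492 for Stard4, so each near gene shared most of the pattern over libraries, including what differs between replicate numbers. These distances are descriptions over 6 libraries of 3 pairs, with no test.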

How the data were processed

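RNA of 6 CGN cultures (3 given DMSO, 3 given GSK-126) was polyA-enriched and sequenced. According to the methods and the submitters' processing notes, the authors trimmed reads with Trimmomatic 0.38, aligned them to GRCm38 (mm10) with STAR 2.7.2b and counted them per gene on exons with HTSeq and a GENCODE annotation. The authors deposited raw counts per gene and library, with no normalization. The strand setting is not given in the sources used here. Lines that name no gene, 58.7% to 60.7% of listed reads, were left out. All 55341 symbols matched GENCODE M21, which gave coordinates and exon lengths.

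Counts were fitted in R 4.3.3 with edgeR 4.0.16 (TMM, filterByExpr, quasi-likelihood test) with the replicate number as a block, and p was adjusted over 16729 genes by Benjamini-Hochberg. Standard errors and 95% intervals follow from the F statistic of this fit. Intervals from counting error alone are not given, since the fit adds the spread between cultures. The block was chosen because the rule for these genes pairs libraries by number and because same-numbered libraries were known to deviate together. Deviations from group means correlated at 0.561, 0.634 and 0.487 over genes between same-numbered libraries and between -0.49 and 0.00638 otherwise. Since deviations from a group mean cancel within the group, the low values follow in part from the high ones and are not separate support. The study's methods state that a replicate is CGNs of pooled litters, and do not state that a number marks a shared litter. DESeq2 1.42.0 and limma 3.58.1 (voom), other normalizations and filters, and left-out libraries were alternatives. The steps were checked on simulated data.

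The 8 genes, the 6 pathway lists, the marker lists, the motifs and the use of the block were chosen with earlier results of these data known, including that the fit without it makes no calls. Named beside the 8 genes are 4 fixed ones (Mbtps2, Nr1h2, Nr1h3, Ezh2), the 2 further called genes of each list with the smallest p, and the 3 nearest profiles of each called gene. Ebp, Fdps, Dab2, Stard5 and the marker genes were named after their values were seen. A few genes of the lists, the ratio and the near profiles that rest on them are not reported here. The p-values of ratios stay adjusted over the 4 that were computed.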

Additional observations from a re-analysis of the deposited data

How the results depend on the processing

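The replicate block decided most calls. Without the replicate block edgeR called 0 of the 8 genes (5 with it) and 0 higher and 0 lower over all genes (561 and 851 with it). DESeq2, which fitted 29476 genes, called 2 of the 8 without the block, with 19 genes higher and 2 lower in all. With the block DESeq2 called the same 5 of the 8 and 351 genes higher. At an adjusted p under 0.01 the counts were 242 higher and 474 lower, and Srebf1 was lost from the 8. With a whole pair left out of the block fit, or 1 library left out of the fit without it, the number of the 8 genes called ranged from 0 to 5, with the low end in every fit without the block. Without replicate 1 it was 3, since Srebf1 and Mylip no longer passed. Over all genes these fits ranged from 0 to 558 higher and 0 to 719 lower, with 337 and 496 without replicate 2. Under the 11 alternatives that kept the block, Srebf2, Insig1 and Stard4 passed each time. Fold changes of the 5 called genes kept their sign under all 19 alternatives, but Srebf1 fell to 0.13 without GSK-126 replicate 1 and was 0.49 without DMSO replicate 1 or GSK-126 replicate 2, each with no block. Signs turned in leave-outs for 4 genes that were not called, with ranges of -0.11 to 0.019 for Scap, -0.31 to 0.057 for Mbtps2, -0.12 to 0.18 for Nr1h2 and -0.29 to 0.048 for Ezh2, and for Apoe, which was called higher (0.34), with a range of -0.094 to 0.73. Calls of Apoe and Vldlr were lost without replicate 2, that of Gramd1b without replicate 1 and that of Tmem97 without replicate 3. The cause was not tested. With 18 to 63 counts per library, depth limits what can be said of Nr1h3.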
